A study of Mus musculus with 10 samples.

Results

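The pituitaries of lactating mice were compared with that of a virgin mouse of the same age. The comparison holds the 2 libraries whose labels give the condition Lactation and the 1 library labelled Virgin, 3 of the 10 libraries of the series and 3 of the 8 made by Drop-seq, in which each cell meets a bead in a droplet, the bead's barcode tags its transcripts, and molecules are counted by unique molecular identifiers (UMIs). After filtering, the 3 libraries held 11597 of the 19939 cell barcodes kept over the 8 Drop-seq libraries. A barcode was kept with 300 or more UMIs, 100 to 4000 detected genes and a mitochondrial share of UMIs under 0.1. The question was how cell composition and hormone expression of the gland differ under the demand of lactation.

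All 3 libraries came from WT female CD1 mice, an outbred stock, at 13 weeks. By the study's text, which names 2 independent experiments, lactating replicate 1 came from 1 mouse, lactating replicate 2 from 2 mice and the virgin library from 1 mouse. The 5 other Drop-seq libraries came from 8-week CD1 mice (2 of WT females, 2 of WT males and 1 of females carrying mt/hGRF, a transgene that drives human growth hormone-releasing hormone from a metallothionein promoter) and entered the statistical fits, in which they help to estimate the spread between libraries. With 1 virgin library, animal, library preparation, sequencing run and condition cannot be told apart, and each p-value below measures only the spread between libraries.

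The virgin library kept 3665 of 5000 barcodes, lactating replicate 1 kept 2676 of 5000 and lactating replicate 2 kept 5256 of 6000, with 2760232, 2520313 and 4963159 UMIs and medians of 534, 710 and 694 UMIs per barcode. The 3 libraries shared 0 kept barcodes. The nuclear transcript Malat1 took 7.85% of UMIs in the virgin library and 13.9% and 14.8% in the lactating ones, against 4.28% to 9.76% in the 8-week libraries, and its part in the results below was not tested. Mitochondrial transcripts took 2.59% to 3.25% of UMIs, and the 7 pituitary hormone genes 19.0% to 26.2%.

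The anterior pituitary releases hormones from dedicated endocrine cells. Lactotropes secrete prolactin, which sustains milk synthesis, somatotropes secrete growth hormone, gonadotropes secrete luteinizing and follicle-stimulating hormone, and melanotropes of the intermediate lobe process the Pomc precursor. Suckling removes the dopamine brake on lactotropes, and gonadotropin secretion is known to be low in lactating rodents. The gland also holds Sox2+ stem and supporting cells and resident macrophages, which present peptides to T cells on class II major histocompatibility complex (MHC) proteins.

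Levels below are UMIs per 10000 UMIs, scaled between libraries by TMM (trimmed mean of M values), and are given in the order virgin, lactating replicate 1, lactating replicate 2. Such levels are compared between libraries only. Intervals on a ratio to the virgin library are exact 95% intervals for counting error and hold no variation between animals. Barcodes were also gated on marker genes: melanotropes by Pcsk2, Oacyl and Pax7 (2 or more UMIs together), gonadotropes by Gnrhr and Nr5a1, stem and supporting cells by Sox2 and macrophages by C1qa (1 or more UMIs). Barcodes that passed more than 1 gate (26, 36 and 43) entered none.

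The sequences upstream of 2 genes are shown because the results on the gonadotrope and macrophage gates turn on Lhb, the luteinizing hormone beta subunit, and on the class II genes. The first is a stretch of 26 bases at chr7:45420817-45420842 (GRCm38.p6, plus strand), from 129 to 104 bases before the Lhb start in RefSeq. GENCODE vM21 draws the start of Lhb at 45420820, inside this stretch. The capitals mark TGACCTTG, the letters of an SF-1 (Nr5a1) site, and CGCCCCCAA, those of an Egr1 site.
Lhb: TGACCTTGtctgtgtctCGCCCCCAA
The second is the 250 bases before the RefSeq start of H2-Aa, the class II alpha chain, at chr17:34287824-34288073 (GRCm38.p6, minus strand), in which capitals mark CTGATTGG, the Y box shared by class II promoters, from 51 to 44 bases before the start.
H2-Aa: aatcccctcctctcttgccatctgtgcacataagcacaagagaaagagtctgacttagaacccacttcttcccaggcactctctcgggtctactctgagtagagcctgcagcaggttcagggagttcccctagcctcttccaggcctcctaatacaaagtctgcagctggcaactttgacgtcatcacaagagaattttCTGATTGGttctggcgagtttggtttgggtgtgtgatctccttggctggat
Searched on both strands over 32851 RefSeq promoter windows (the 250 bases before each start), the Egr1 letters occurred in 0.737%, the SF-1 letters in 1.33% and the Y box letters in 3.83%. The windows of Fshb and Cga held neither Lhb motif. The Y box letters were in the windows of H2-Aa, H2-Eb1 and H2-D1 among 7 MHC genes searched. H2-Ab1 was not searched.

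Over all kept barcodes, none of the 7 hormone genes was called by edgeR over 8 libraries, and 1, Lhb, was called lower by the fit to the 3 libraries of 13-week mice (adjusted p = 2.14e-18, edgeR), which called 0.897% of all genes lower. Prl, which encodes prolactin, stood at levels of 987, 1186 and 1783, and Gh, which encodes growth hormone, at 1111, 654 and 1307. Both lactating libraries had more Prl than the virgin and than any 8-week library (81.9 to 698), by 1.20-fold and 1.81-fold, whereas Gh was on either side of the virgin. The log2 fold change of Prl was 0.59 (SE 0.91), smaller than its standard error. Pomc stood at 250, 335 and 554, Cga, the alpha subunit shared by the glycoprotein hormones, at 10.7, 7.99 and 12.7, and Tshb, the thyrotropin beta subunit, at 1.26, 1.29 and 2.42. None of these 3 was called by either fit.

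The gonadotropin beta subunits were the hormone genes that were lower in both lactating libraries. Lhb gave 560, 59 and 127 UMIs, or levels of 2.14, 0.269 and 0.357, which is 0.126-fold (0.0944 to 0.164) and 0.166-fold (0.136 to 0.202) of the virgin. Fshb, the follicle-stimulating hormone beta subunit, stood at 0.398, 0.26 and 0.174. In the 8-week libraries Lhb ranged from 0.32 to 2.99, so that the virgin level lay within their range and both lactating levels at its lower edge. Over all cells, fewer gonadotropes and less Lhb per gonadotrope cannot be told apart. Chgb, a granin that packs hormones into secretory granules, stood at 62.1, 84.4 and 164, or 1.36-fold and 2.64-fold of the virgin, and all 3 levels were above those of the 8-week libraries (16.8 to 31.5). Its log2 fold change was 1.00 (SE 0.56).

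**Figure D1:**
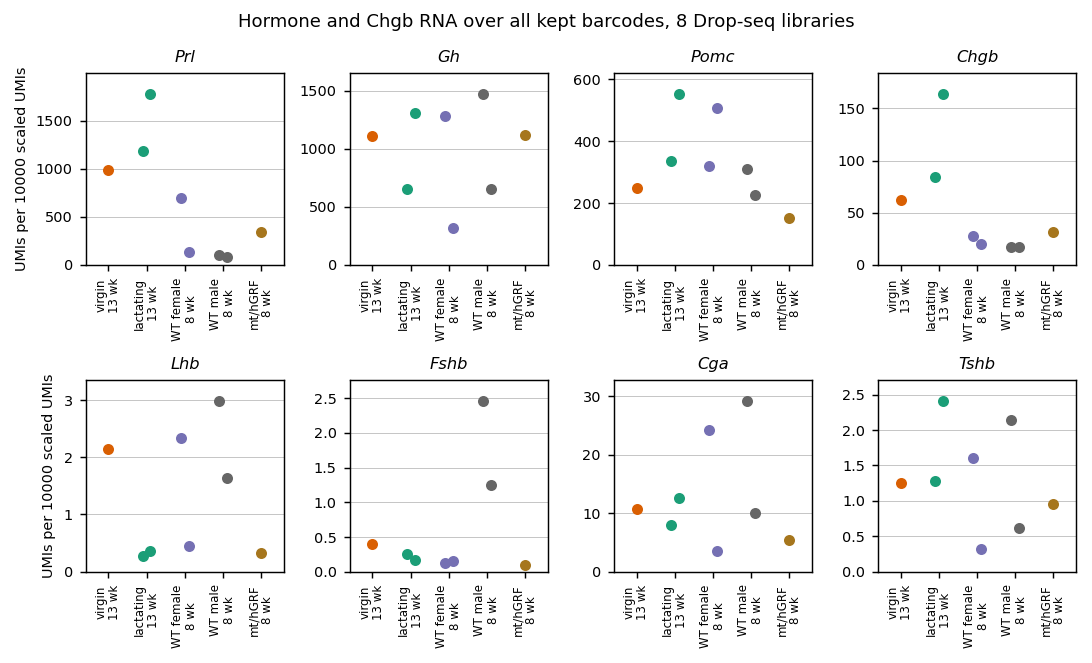
Levels (UMIs per 10000 TMM-scaled UMIs) of 7 hormone genes and Chgb over all kept barcodes, 1 panel a gene, 1 point a library, with the 8 Drop-seq libraries grouped along the x axis by condition. Both lactating libraries lie above the 6 others for Prl (1186 and 1783) and Chgb (84.4 and 164) while Lhb (0.269 and 0.357) is far below the virgin (2.14) and near the lowest 8-week level (0.32), and Gh (654 and 1307) spans the virgin (1111).

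Over all kept barcodes the number of genes called depended on which libraries entered the fit. The edgeR quasi-likelihood fit to 8 libraries called 0 of 18359 genes higher (0%) and 0 lower (0%) at an adjusted p of 0.05, with 307 genes at an unadjusted p under 0.05 (157 higher and 150 lower), and DESeq2 called 0 higher and 5 lower. The edgeR fit to the 3 libraries of 13-week mice alone, whose spread comes from the 2 lactating libraries, called 80 of 14379 genes higher (0.556%) and 129 lower (0.897%). As a description with no test, 488 of 15225 genes with 20 or more UMIs were at least 1.5-fold higher in both lactating libraries with both counting intervals clear of 1 (3.21%), and 488 were at least 1.5-fold lower (3.21%), which is called the 1.5-fold rule below. The rule and the gene lists below were chosen with these data known, and both ratios use the same virgin library. Counts by the rule are therefore descriptions. With TMM left out and library sizes taken from all genes other than the hormones, 2 changes made together and called the plain scaling below, the median log2 fold change of all genes moved from 0.04 to -0.20 and the split to 169 higher and 1305 lower. Differences near the size of that shift therefore depend on the scaling.

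In the gonadotrope gate, Lhb fell in lactation. The gate held 91, 33 and 98 barcodes, and in them Lhb gave 221, 11 and 17 UMIs, or levels of 22.3, 2.28 and 1.46. Both lactating levels lay below the 6 other libraries and the virgin above the 7 others, the 8-week libraries ranging from 3.2 to 9.3. The ratios to the virgin were 0.102 (0.0503 to 0.187) and 0.0653 (0.0374 to 0.107), and the log2 fold change was -3.62 (SE 0.62, adjusted p = 0.00343, edgeR, 8 libraries). The gate rests on Gnrhr, the receptor for gonadotropin-releasing hormone, and Nr5a1, the SF-1 factor whose site is marked in the sequence above. Gnrhr stood at 16.4, 12.4 and 11.9 and Nr5a1 at 2.02, 2.07 and 1.46 in these barcodes. Without lactating replicate 2 the Lhb call was lost (log2 fold change -3.27, adjusted p = 0.843, edgeR), replicate 1 then being assumed to vary like the other groups.

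The share of gonadotrope barcodes with an Lhb UMI followed the level. It was 37 of 91 (40.7%, exact 95% interval 30.5% to 51.5%) in the virgin, 6 of 33 (18.2%, 6.98% to 35.5%) and 15 of 98 (15.3%, 8.83% to 24.0%) in the lactating libraries, at median depths of 715, 1134 and 766 UMIs. Thinned to 300 UMIs a barcode, the shares were 25.3%, 6.06% and 5.10%. Free RNA in the droplets sets a background: in C1qa+ macrophages, which do not make Lhb, the shares were 2.98%, 0% (0 of 135 barcodes, which allows up to 2.22%) and 0% (0 of 118, which allows up to 2.54%), at median depths of 758, 722 and 1005.5 UMIs. All 3 gonadotrope shares lay above that macrophage background. Other gates held more Lhb: the melanotrope shares were 8.13%, 1.44% and 2.37% and the Sox2 shares 8.0%, 15.8% (3 of 19) and 3.51%. The 18.2% of replicate 1 thus lay close to its Sox2 share. After thinning, the exact 95% intervals of gonadotropes in the lactating libraries (0.743% to 20.2% and 1.68% to 11.5%) overlapped those of macrophages (0% to 2.70% and 0% to 3.08%).

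Other gonadotrope genes had smaller differences. In the gate, Fshb stood at 6.35, 3.11 and 1.63, which is 0.489-fold (0.259 to 0.869) and 0.256-fold (0.145 to 0.433) of the virgin. Cga stood at 100.2, 66.7 and 72.5, and Tgfbr3l, the inhibin co-receptor of gonadotropes, at 7.06, 4.35 and 2.48. Of 11 gonadotrope genes, Lhb passed the test (0.139% of all genes in the gate did downward), and 4 (Fshb, Lhb, Pitx1 and Rasgrf1) met the 1.5-fold rule downward, where 1.11% of all genes did, with none upward. The list's median log2 fold change was -0.87, against 0 over all 1443 genes tested. Pitx1, a pituitary lineage factor, stood at 1.82, 0.414 and 0.685, and Isl1, a gonadotrope transcription factor, at 2.22, 2.9 and 1.2.

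Across the gate, edgeR called 0 genes higher (0%) and 2 lower (0.139%), Lhb and the splicing factor Cwc22 described below, with 17 at an unadjusted p under 0.05, and DESeq2 also called 0 and 2. The fit to 3 libraries called 1 higher (0.0474%) and 3 lower (0.142%) of 2111, and the 1.5-fold rule gave 24 higher and 24 lower of 2156 (1.11% each), a split of 18 and 45 under the plain scaling. Ttyh1 (0.202, 1.45 and 2.82), Ccdc191 (0.807, 2.69 and 3.51) and Cep290 (0.706, 3.94 and 3.17), a ciliary protein, had the smallest unadjusted p-values among genes higher in lactation and were not called. Against barcodes of no gate, Lhb, the gene under test, was enriched 23.5-fold, 16.2-fold and 6.09-fold in the gate. Fshb was enriched 43.7-fold, 25.1-fold and 17.2-fold, and Cga 17.2-fold, 13.4-fold and 8.92-fold. Fshb and Cga thus marked the gate in every library, but all 3 enrichments fell from the virgin to replicate 2. The gate genes summed to 19.5, 14.5 and 12.1 UMIs per 10000. Lactotrope markers summed to 843, 801 and 1151 in the gate, against 1096, 1207 and 1387 in barcodes of no gate. Somatotrope markers summed to 808, 568 and 991, against 1195, 652 and 1021. Pomc stood at 123, 348 and 240 in the gate. The part of transcripts from other cells in the Lhb difference was not tested.

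**Figure D2:**
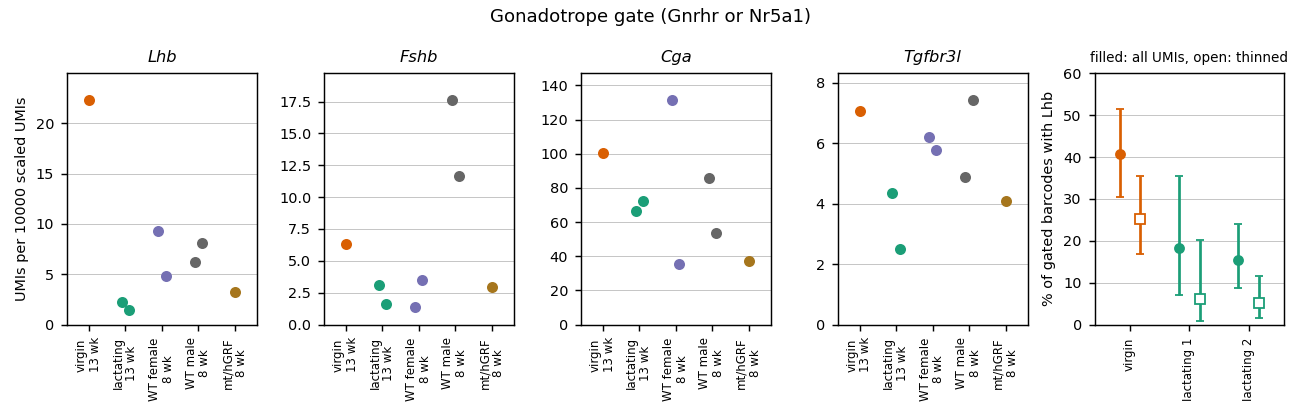
Levels of Lhb, Fshb, Cga and Tgfbr3l in the gonadotrope gate (UMIs per 10000 TMM-scaled UMIs, 1 point a library, 8 libraries), and the percent of gated barcodes with an Lhb UMI (filled, all UMIs, open, thinned to 300 UMIs, bars exact 95% intervals). Lhb is at 2.28 and 1.46 in the lactating libraries, below the 6 others, and at 22.3 in the virgin, above the 7 others.

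Several antigen-presentation genes were lower in both lactating libraries, over all barcodes and within macrophages, but H2-Eb1 was not. Cd74, the class II invariant chain, gave 5760, 706 and 535 UMIs over all barcodes, or levels of 22, 3.22 and 1.5. H2-Aa stood at 17.7, 3.74 and 2.01, and H2-Ab1, the class II beta chain, at 11.7, 2.73 and 1.54. For each of the 3 genes the virgin lay above all 7 other libraries, Cd74 reaching at most 4.72 and H2-Aa 4.07 in the 8-week libraries, which left the lactating levels near the 8-week range. The class I genes were also lower, by less: H2-D1 stood at 15.3, 7.28 and 5.56, H2-K1 at 8.74, 4.59 and 3.78, and B2m, the class I light chain, at 14.1, 8.69 and 4.85.

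Of 15 genes of the antigen presentation and interferon response list with enough UMIs, 12 met the 1.5-fold rule downward and 0 upward over all barcodes, where 3.21% of all genes met it downward. Among them were B2m, Bst2, Cd74, H2-Aa, H2-Ab1, H2-D1, H2-K1, Ifi27l2a and Ifitm3, and the virgin was above the 7 other libraries for 12 of the 15. The list's median log2 fold change was -1.29, against 0.04 over all genes. Under the plain scaling the count was also 12, beside 1305 of all 15225 genes. That scaling lowers both ratios of every gene, so the count could not fall. The list and the rule were chosen with these data known, so the comparison with 3.21% is a description. Among the interferon-induced members, Ifitm3 stood at 1.44, 0.379 and 0.764 and Ifi27l2a at 0.612, 0.233 and 0.222. Tap1, the peptide transporter, did not meet the rule (0.119, 0.0822 and 0.0899), nor did Irf7 (0.0804, 0.0593 and 0.0674), and Ifit3 had 0, 8 and 2 UMIs. By edgeR over 8 libraries none of these was called (Cd74 log2 fold change -3.22, SE 0.49, adjusted p = 0.482), and the fit to 3 libraries called 8 of the list lower and 1, H2-Eb1, higher, where it called 0.897% of all genes lower and 0.556% higher.

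H2-Eb1, another class II beta chain, did not move with the others. It stood at 0.168, 1.41 and 0.0225, and in the 8-week libraries it ranged from 0.0664 to 3.12. In the C1qa gate its levels were 1.84, 17.3 and 0.486, so the lactating libraries lay on either side of the virgin in both. The fit to 3 libraries called it higher (adjusted p = 8.98e-06, edgeR), although replicate 2 was below the virgin. The libraries of 1 group also differed, with 1.88 and 0.0664 in the WT 8-week females and 0.143 and 0.291 in the males, and the cause was not tested.

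The class II difference held within the macrophage gate, which had 235, 135 and 118 barcodes. There Cd74 stood at 247, 40.8 and 34.1, against 36.4 to 97.2 in the 8-week libraries, which is 0.165-fold (0.151 to 0.180) and 0.138-fold (0.124 to 0.152) of the virgin. Cd74 fell by the test (log2 fold change -2.72, SE 0.52, adjusted p = 0.0400, edgeR, 8 libraries), and the call was lost without lactating replicate 2 (adjusted p = 0.0516, edgeR) and without WT 8-week male replicate 1 (adjusted p = 0.0685, edgeR). H2-Aa stood at 199, 46.7 and 43.4 and H2-Ab1 at 133, 33.1 and 34.5, with adjusted p-values of 0.166 and 0.316 (edgeR). H2-D1 (109, 62.8 and 58.5) and B2m (116, 101 and 88.7) were lower by less. The part of macrophages carrying class II transcripts differed as well: a Cd74 UMI was found in 213 of 235 (90.6%), 65 of 135 (48.1%) and 46 of 118 (39.0%) barcodes, or 88.5%, 37.0% and 31.4% after thinning, against 3.66%, 0.576% and 0.678% in the melanotrope gate.

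C1qa, the gate gene, which the macrophage list leaves out, stood at 80.5, 53.3 and 39.0 in the gate. Several other genes that mark macrophages were closer between the libraries. C1qb, a complement subunit, stood at 71.3, 57.7 and 47.5, C1qc at 64.1, 59.1 and 54.1, Csf1r, the receptor for macrophage colony-stimulating factor, at 9.86, 7.96 and 10.4, and Cx3cr1, the fractalkine receptor, at 14.3, 14.0 and 18.3. Of 19 macrophage genes in the gate, 2 met the 1.5-fold rule downward, Lyz2 (44.7, 22.9 and 29.1) and Mrc1 (4.34, 2.63 and 2.75), and 0 upward, with a median log2 fold change of -0.10. The fit to 3 libraries, in which the virgin is 1 library, called some macrophage genes of the gate higher and none lower. Of 13 antigen-presentation genes in the gate, 6 met it downward, among them Cd74, H2-Aa, H2-Ab1 and H2-D1, where 2.29% of all genes did, and the median was -1.11, against 0.02 over all genes tested. The virgin lay above the 7 other libraries for 11 of the 13 (84.6%) and for 66 of all 89 lower genes (74.2%), against 11.2% of all genes in the gate. These shares are descriptions, since the list was chosen with these data known and the virgin is above both lactating libraries by the rule. Over all barcodes 7 of 19 macrophage genes met it downward, where 3.21% of all genes did, with C1qa itself at 6.56, 3.31 and 1.38.

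Across the macrophage gate, edgeR called 0 of 3481 genes higher (0%) and 3 lower (0.0862%), with 86 at an unadjusted p under 0.05 (31 higher and 55 lower), and DESeq2 called 0 higher and 1 lower, Cd74 (adjusted p = 0.00362, DESeq2). The genes lower by edgeR were Cd74, Cwc22 (3.73, 0.0751 and 0.0809, adjusted p = 0.000582, edgeR) and Ccl5, a chemokine, with 38, 0 and 1 UMIs (adjusted p = 0.0437, edgeR), whose call was lost without lactating replicate 1 (adjusted p = 0.480, edgeR), replicate 2 (0.0669) or either WT 8-week male library (0.30 and 0.119). The fit to 3 libraries called 15 of 2999 higher (0.5%) and 25 lower (0.834%), and the 1.5-fold rule gave 48 of 3888 higher (1.23%) and 89 lower (2.29%). Genes lower in lactation by that rule also held Ccl8 (38, 0 and 1 UMIs), the interferon-induced Gbp7 (2.03, 0.0751 and 0.647) and AW112010 (7.17, 1.73 and 1.46), and Coro1a (3.54, 0.826 and 1.54), an actin-binding protein of leukocytes. Wfdc17 (0.802, 5.03 and 2.83) and Chd9 (0.519, 2.03 and 2.27) were higher and were not called.

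Markers of other cells moved with these results. Red cell markers summed to 87.5, 6.66 and 21.7 UMIs per 10000 in the macrophage gate, with Hbb-bs at 61.7, 5.03 and 17.7. T and NK cell markers summed to 1 UMI in each library, with 2 of the 3 at 0, and corticotrope markers to 0. Prl stood at 230, 270 and 488 in the gate, and Chgb at 9.76, 20.7 and 65.7. The part of the red cell and endocrine transcripts in the differences was not tested.

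**Figure D3:**
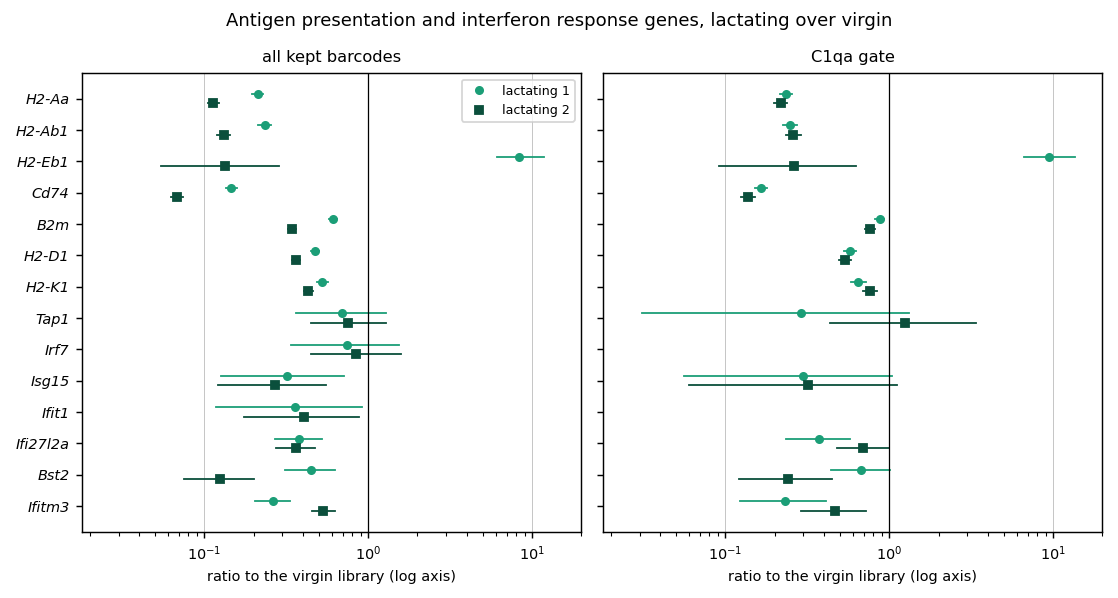
Ratio to the virgin library of genes of the antigen presentation and interferon response list (log axis, bars exact 95% counting intervals, circles lactating replicate 1, squares replicate 2), over all kept barcodes and in the C1qa gate. Cd74 lies at 0.146 and 0.0682 over all barcodes and at 0.165 and 0.138 in the gate, whereas H2-Eb1 lies above 1 in replicate 1 and below 1 in replicate 2.

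Cells with many class II transcripts were also fewer among all barcodes. Barcodes with 10 or more UMIs summed over Cd74, H2-Aa and H2-Ab1 (H2-Eb1 was not summed) numbered 209 (5.70% of kept), 56 (2.09%) and 35 (0.666%). Of these, 186, 41 and 28 were in the C1qa gate. Most such barcodes thus held macrophage transcripts in each library.

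The melanotrope gate held 246, 347 and 590 barcodes. Its check was mixed: against barcodes of no gate, Pomc was enriched 6.49-fold, 5.01-fold and 6.37-fold, the lineage factor Tbx19 4.35-fold, 5.68-fold and 4.07-fold and Esm1 5.76-fold, 9.86-fold and 7.45-fold, but the granin-like Pcsk1n (0.714-fold, 0.795-fold and 0.997-fold) and Scg5 (0.917-fold, 0.803-fold and 1.22-fold) were not. Prl stood at 637, 537 and 1139 in the same barcodes. Pomc, the main product of melanotropes, stood at 1031, 815 and 1726, on either side of the virgin, and Chgb at 36.5, 44.5 and 108.

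Genes higher in both lactating libraries of the melanotrope gate were led by Crhbp, which binds corticotropin-releasing hormone. It gave 5, 65 and 116 UMIs, or levels of 0.199, 1.52 and 1.99, which is 7.65-fold (3.11 to 24.3) and 9.99-fold (4.16 to 31.3) of the virgin, and the 8-week libraries ranged from 0 to 0.547. It was found in 1.63%, 12.1% and 12.0% of gated barcodes against 2.98%, 4.44% and 5.93% of C1qa+ macrophages. After thinning to 300 UMIs the shares were 0%, 2.31% and 3.90% against 1.28%, 2.96% and 2.54%, so that at matched depth the virgin and replicate 1 were at or below that background. Barcodes of no gate had it in 9.12%, 17.4% and 18.1%, and over all barcodes its level was 1.76, 3.28 and 3.77. The test did not call it. Vegfa (0.119, 0.492 and 0.668), the stress factor Ddit3 (0.239, 0.679 and 0.583), and the metallothioneins Mt1 (1.19, 2.53 and 4.04) and Mt2 (1.07, 2.11 and 1.83) met the 1.5-fold rule upward in the gate.

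Tbx19, B2m, Cd74 and Lhb met the rule downward there. Tbx19, which drives Pomc expression, stood at 1.71, 0.983 and 0.446, and B2m at 1.71, 0.585 and 0.737. Of 10 genes of the Pomc processing and melanotrope list, Tbx19 alone met the rule, and the median log2 fold change was -0.20, against 0.04 over all genes. By edgeR 0 of 6601 genes were higher (0%) and 1 was lower (0.0151%), Cwc22, with 149 at an unadjusted p under 0.05 (106 higher and 43 lower), and DESeq2 called 0 and 1. The fit to 3 libraries called 0 of 6951 in either direction (0%), with 129 higher and 62 lower at an unadjusted p under 0.05. The 1.5-fold rule gave 115 of 7427 higher (1.55%) and 66 lower (0.889%), a split that turned to 43 and 222 under the plain scaling. For 51 of the 66 lower genes (77.3%, against 11.2% of all genes) the virgin was above the 7 other libraries. The rule already sets the virgin above both lactating libraries, so this share is a description.

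The Sox2 gate was the smallest, with 75, 19 and 57 barcodes. Because 19 is under the minimum of 20, lactating replicate 1 stayed out of the fit, as did WT 8-week female replicate 2 with 17. The contrast there was between replicate 2 and the virgin, and with 1 residual degree of freedom the spread behind every p-value came from the WT 8-week male pair. Stem cell markers checked the gate: Mia was enriched 24.2-fold, 52.6-fold and 29.1-fold over barcodes of no gate, Sox9, a stem cell factor, 43.8-fold, 33.4-fold and 25.4-fold, and Cyp2f2 21.7-fold, 52.3-fold and 11.9-fold, while S100b was at 0, 1 and 0 UMIs. The levels of Mia (34.3, 24.9 and 26.1), Sox9 (1.85, 1.98 and 1.31) and the gate gene Sox2 (9.52, 11.9 and 10.4) are given as the check of the gate. Of 13 stem and supporting cell genes, 0 met the 1.5-fold rule, with median ratios to the virgin of 0.604 and 0.771 and a median log2 fold change of -0.37, against -0.01 over all genes.

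MHC genes fell in the Sox2 gate too. H2-D1 stood at 32.2, 8.30 and 5.55 (log2 fold change -2.53, SE 0.42, adjusted p = 3.54e-06, edgeR), H2-K1 at 26.5, 9.88 and 6.13 (adjusted p = 9.93e-05, edgeR) and B2m at 23.5, 7.51 and 4.24 (adjusted p = 8.53e-06, edgeR). Cd74 gave 64, 0 and 0 UMIs, at least 3.84-fold and 10.4-fold lower than the virgin against a floor of 3 counts per library. H2-D1 reached 18.5 in the 8-week libraries, so that the virgin was above all others and the lactating levels within their range. The same held for H2-K1, but for B2m and Cd74 the virgin was within the 8-week range, which reached 25.7 and 5.0. The virgin was above the 7 others for 2 of 7 genes of the list, against 8.12% of all genes in the gate. Ly6h fell as well, at 8.88, 4.35 and 2.48. Of 7 antigen-presentation genes, 5 met the 1.5-fold rule downward, where 1% of all genes in the gate did. Macrophage markers in the same barcodes summed to 6, 0 and 4 UMIs. Barcodes with a C1qa UMI had been left out of this gate, which itself lowers that sum. With barcodes of several gates kept, the Sox2 gate held 90, 34 and 76 barcodes. Pituicyte markers summed to 28, 0 and 8, T and NK cell markers to 5, 0 and 0, corticotrope markers to 7, 0 and 0 and stromal markers to 0, 2 and 0. The part of such cells in the MHC differences was not tested.

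Chgb rose in the Sox2 gate, at 17.9, 103 and 93.2 (adjusted p = 1.24e-05, edgeR). Tshb (0.213, 1.58 and 2.63), Cga (3.34, 8.69 and 11.1), the metallothionein Mt3 (0.853, 13.0 and 4.53), Col1a2 (1.35, 1.58 and 6.28) and Nap1l5 (1.92, 3.95 and 6.86) rose as well, Col1a2 being near the virgin in replicate 1. With barcodes of several gates kept, 0 genes were called higher. Lactotrope markers summed to 276, 1078 and 1122 UMIs per 10000 in these barcodes, with Prl at 261, 1260 and 1354, and their part in the rise was not tested. The neural lobe hormones Oxt (3, 0 and 52 UMIs) and Avp (0, 0 and 34 UMIs) were also called higher, but both were at 0 in lactating replicate 1, which stayed out of the fit. In all, edgeR called 9 of 1762 genes higher (0.511%) and 5 lower (0.284%), with 79 at an unadjusted p under 0.05, and DESeq2 called 0 in either direction, with 11 at an unadjusted p under 0.05. The 1.5-fold rule gave 38 of 2094 higher (1.81%) and 21 lower (1%), or 23 and 48 under the plain scaling.

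The melanotrope gate took a larger share of barcodes in both lactating libraries than in the virgin and the Sox2 gate a smaller one. Melanotrope-gated barcodes made up 6.71% (5.92% to 7.57%), 13.0% (11.7% to 14.3%) and 11.2% (10.4% to 12.1%) of kept barcodes, and after thinning 3.17%, 6.20% and 4.15%. Gonadotrope-gated barcodes made up 2.48% (2.0% to 3.04%), 1.23% (0.850% to 1.73%) and 1.86% (1.52% to 2.27%), and Sox2+ barcodes 2.05% (1.61% to 2.56%), 0.710% (0.428% to 1.11%) and 1.08% (0.822% to 1.40%). C1qa+ barcodes made up 6.41% (5.64% to 7.25%), 5.04% (4.25% to 5.94%) and 2.25% (1.86% to 2.68%). The melanotrope share was thus 1.93-fold and 1.67-fold of the virgin and the Sox2 share 0.347-fold and 0.530-fold, with the same direction after thinning, where the melanotrope ratio of replicate 2 fell to 1.31 and its interval (3.62% to 4.72%) overlapped that of the virgin (2.62% to 3.78%). In the 8-week libraries the melanotrope share ran from 3.86% to 10.5% (1.5% to 6.28% after thinning) and the Sox2 share from 1.15% to 2.56%. At the other gate threshold the Sox2 share was 0.304-fold and 0.232-fold of the virgin, and with barcodes of several gates kept 0.517-fold and 0.589-fold. The gonadotrope intervals of lactating replicate 2 and the virgin overlapped, as did the C1qa intervals of replicate 1 and the virgin. At a minimum of 500 UMIs neither pair overlapped, with gonadotrope intervals of 2.66% to 4.27% in the virgin and 1.61% to 2.44% in replicate 2. The C1qa share of replicate 1 was then 0.486-fold of the virgin in place of 0.787-fold. Gonadotrope intervals of both lactating libraries overlapped that of the virgin after thinning, at the other gate threshold and with barcodes of several gates kept. The gonadotrope ratios to the virgin were 0.543 and 0.710, 0.587 and 0.657, and 0.645 and 0.848 in these settings. With 1 virgin library no test between conditions was made, and the share of a gate also moves with the level of its gate genes and with depth. Pcsk2, 1 of the melanotrope gate genes and a prohormone convertase of many endocrine cells, was 2.02, 4.83 and 5.18 over all barcodes.

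**Figure D4:**
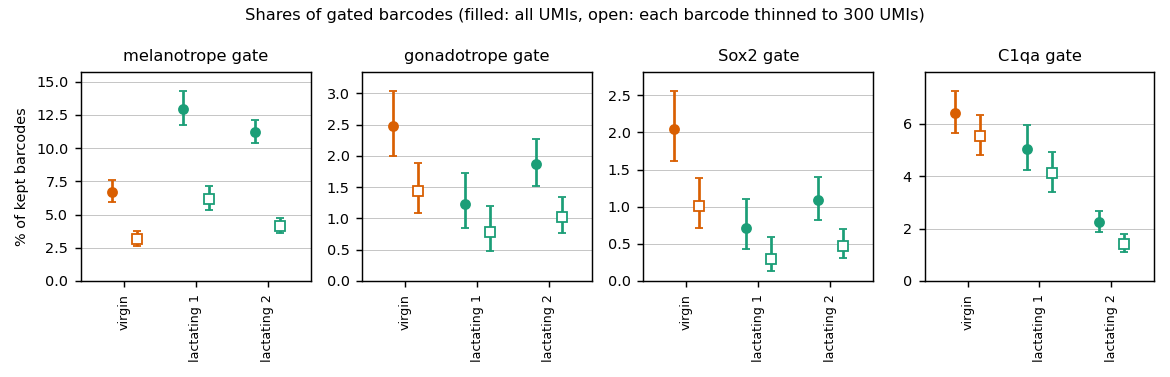
Percent of kept barcodes in each of the 4 gates for the virgin and both lactating libraries (filled, all UMIs, open, thinned to 300 UMIs, bars exact 95% intervals). The melanotrope share is 6.71% in the virgin against 13.0% and 11.2%, and the Sox2 share 2.05% against 0.710% and 1.08%.

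Among genes higher in both lactating libraries over all barcodes, a nicotinic receptor pair was at 0 and 1 UMIs in the virgin library. Chrna6, the alpha-6 subunit, gave 0, 85 and 159 UMIs, at least 33.8-fold and 38.9-fold higher than the virgin against a floor of 3 counts. Chrnb3, the beta-3 subunit, gave 1, 39 and 83. The genes are neighbours on chromosome 8, 3481 bases apart by their ends in GRCm38 (GENCODE vM21, Chrnb3 from 27368711 to 27399730 on the plus strand and Chrna6 from 27403212 to 27413944 on the minus strand). In the 8-week libraries Chrna6 was between 0.0725 and 0.256, below the lactating levels of 0.388 and 0.447 and above the virgin. Chrnb3 stood at 0.178 and 0.233 in the lactating libraries, within the 8-week range of 0.0213 to 0.389, and the virgin was below it. By the fit to 3 libraries Chrna6 (adjusted p = 4.37e-20, edgeR) and Chrnb3 (adjusted p = 9.59e-09, edgeR) were called higher, and by the fit to 8 libraries Chrna6 was not (adjusted p = 0.106, edgeR).

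Chrna6 was counted about once in each barcode that held it. It was found in 0 of 3665 virgin barcodes, which allows a share of up to 0.0819%, and in 81 of 2676 (3.03%) and 144 of 5256 (2.74%) lactating ones. Of these, 74 and 131 passed no gate. Free RNA can give such single UMIs: among C1qa+ macrophages, 0 of 135 barcodes (which allows up to 2.22%) and 1 of 118 (0.847%) had one. Barcodes of no gate with Chrna6 held Gria2, a glutamate receptor subunit of lactotropes, at 7.66 and 5.87 UMIs per 10000, against 4.44 in both libraries without it, and Gh at 298 against 671 and at 799 against 1029. Prl was 1363 against 1192 in replicate 1 and 1294 against 1386 in replicate 2, which is no common direction.

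Other genes with higher levels in both lactating libraries, picked after their values were seen, had varied roles. Gad2, which makes the transmitter GABA, stood at 0.0612, 0.278 and 0.32, the synapse protein Nrxn3 at 0.191, 0.949 and 0.477, the vesicle calcium sensor Syt1 at 1.26, 3.38 and 2.92, and the mitochondrial folate enzyme Aldh1l2 at 0.0995, 0.424 and 0.312. For Gad2, Nrxn3 and Aldh1l2 both lactating libraries lay above the 6 others. Hmgn3, a nucleosome-binding protein, stood at 2.19, 4.66 and 7.71, the thyroid hormone receptor Thrb at 0.341, 0.73 and 0.862, Mt3 at 0.605, 1.66 and 1.1 and the matrix genes Dcn and Col1a2 at 0.402, 1.02 and 0.874 and at 5.15, 7.86 and 13.6. Each was called by the fit to 3 libraries except Col1a2, and none by the fit to 8. The largest fold changes called by the fit to 3 libraries also held Stac2 (1, 17 and 35 UMIs), Stat4 (1, 12 and 37 UMIs), the noncoding Lncpint (6, 27 and 55 UMIs) and 5 predicted genes, among them Gm13912 with 0, 10 and 37 UMIs.

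Among genes lower in both lactating libraries, Cwc22 was called in 3 gates. Over all barcodes it gave 2848, 64 and 57 UMIs, or levels of 10.9, 0.292 and 0.160, and it was found in 43.8%, 2.32% and 1.03% of barcodes. The log2 fold change was -5.60 (SE 0.58, adjusted p = 0.0840, edgeR, 8 libraries, the smallest of all genes), and in the melanotrope gate -6.68 (SE 0.61, adjusted p = 2.14e-06, edgeR), where the level was 12.1, 0.211 and 0.0343. The 8-week libraries split in the same way with no lactation: both WT males were high, at 4.31 and 9.82, and the 3 female libraries low, at 0.194 to 0.250. Prss22, a serine protease, gave 166, 0 and 0 UMIs, at least 46.4-fold and 75.4-fold lower, and was at 0 in 4 of the 5 8-week libraries, with 0.105 in a male one. The pseudogene Gm7340 (115, 2 and 3 UMIs) and Gdpd3 (182, 15 and 15 UMIs) followed.

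The remaining lower genes were of several kinds. The immunoglobulin genes Igkc (50, 3 and 9 UMIs) and Igha (31, 3 and 0 UMIs) mark plasma cells, Iigp1 (42, 5 and 6 UMIs) is an interferon-induced GTPase and F830016B08Rik gave 25, 1 and 4 UMIs. Ptgds, prostaglandin D synthase, stood at 1.54, 0.183 and 0.244. The actin regulators Cfl1 (1.75, 0.616 and 0.61) and Arpc3 (0.911, 0.333 and 0.312), the ubiquitin hydrolase Uchl1 (0.919, 0.497 and 0.43) and Ly6h (2.71, 0.94 and 0.809) were also called lower by the fit to 3 libraries. Avpr1b, the pituitary vasopressin receptor, stood at 0.214, 0.0593 and 0.0421.

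The 8-week libraries show where the levels of these genes lay. For 290 of the 488 genes lower in lactation (59.4%) the virgin lay above all 7 other libraries, as it did for 11% of all genes, and for 82 (16.8%) both lactating libraries lay below the 6 others, against 3.76% of all genes. For 229 of the 488 higher genes (46.9%) both lactating libraries lay above the 6 others, against 10.5% of all genes, and for 168 (34.4%) the virgin lay below the 7 others, against 7.81%. The rule used the virgin level, so these shares are descriptions.

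**Figure D5:**
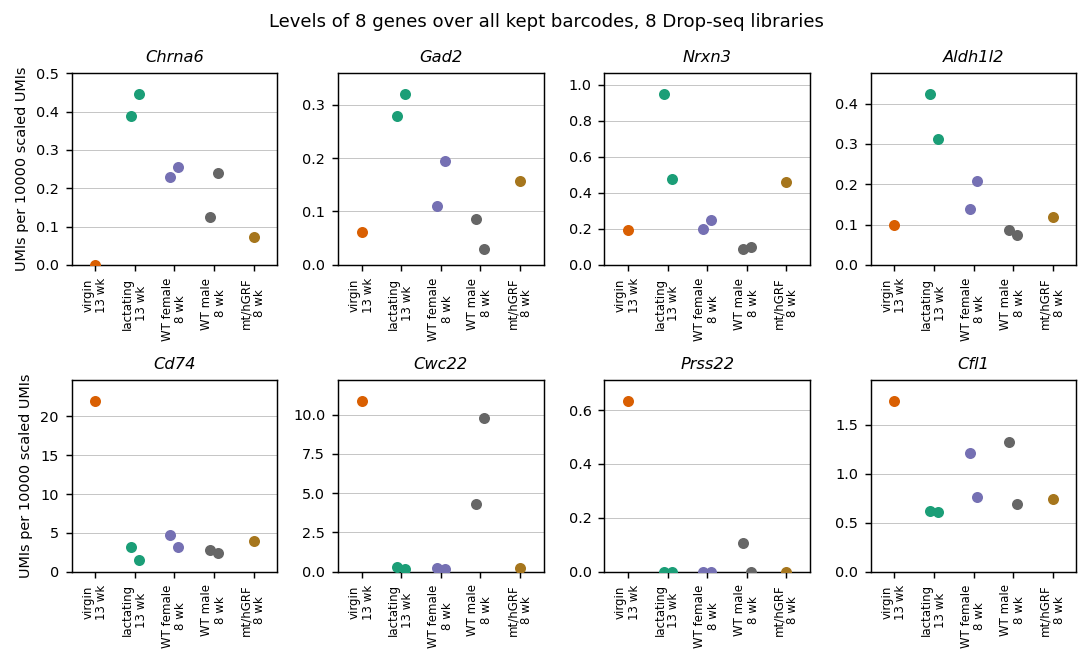
Levels over all kept barcodes in the 8 Drop-seq libraries (1 point a library) for 8 genes named in the text. Chrna6 (0.388 and 0.447), Gad2, Nrxn3 and Aldh1l2 are highest in the lactating libraries, Cd74 (22) and Prss22 (0.635) are highest in the virgin alone, Cwc22 is high in the virgin and both male libraries, and Cfl1 is lowest in the lactating libraries (0.616 and 0.61).

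The lists of the secretory machinery are read against the 3.21% of all genes that met the 1.5-fold rule in each direction over all barcodes. Of 21 granins and granule proteins, Pcsk2 and Syt1 met it upward and Pcsk1n (5.52, 2.34 and 3.07) and Rab3b downward, with a median log2 fold change of 0.18. Of 23 endoplasmic reticulum folding and 20 translocation genes, 0 met it in either direction (medians -0.15 and -0.13), Hspa5, the main luminal chaperone, standing at 12.1, 8.99 and 14.6 and Hsp90b1 at 21.2, 18.0 and 24.9. Of 13 genes of prolactin feedback and ovarian steroid signalling, Drd2, the dopamine receptor that restrains lactotropes, met it upward (0.122, 0.224 and 0.239), while Prlr, the prolactin receptor, stood at 1.28, 1.55 and 2.50 and Esr1, the estrogen receptor, at 0.463, 0.539 and 0.528. Of 8 lactotrope genes other than Prl, Gria2 met it upward (2.83, 4.90 and 5.97), and of 5 somatotrope genes other than Gh, Dlk1 met it downward.

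The other lists gave counts of 0 to 5 over all barcodes by the same rule, beside a background of 3.21% in each direction. Of 15 local peptides and growth factors, Crhbp was higher and Igfbp5 (3.82, 1.66 and 2.48) and Penk (0.475, 0.164 and 0.264) lower, of 9 receptors for hypothalamic factors Drd2 was higher and Avpr1b lower, and of 16 lineage factors Nr4a2 was higher and Pitx1 (0.819, 0.347 and 0.466) lower. Of 20 stem and supporting cell genes, 5 were lower (Aldh1a2, Cpxm2, Mia, Sox9 and Vim), with Mia at 3.19, 0.717 and 1.59, and of 15 gonadotrope genes 4 were lower (Fshb, Lhb, Pitx1 and Tgfbr3l). Of 12 genes of Pomc processing, Drd2 was higher and Pcsk1n lower, and of 7 pituitary hormones Fshb and Lhb were lower. Jun was lower among 15 immediate early genes, Top2a higher and Mcm5 lower among 20 cell cycle genes, Fdps lower among 17 cholesterol synthesis genes and Mt3 higher among 3 metallothioneins. The median log2 fold changes of these lists ran from -0.51 for both the local peptides and the metallothioneins to 0.41 for the cell cycle genes, against 0.04 over all genes.

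In the translation and respiration lists few genes met the rule, although the medians were below that of all genes. Rpl35a was higher and Rpsa lower among 81 ribosomal protein genes (median log2 fold change -0.22), and Ndufaf1 was higher and Atp5g1, Ndufb4 and Uqcc1 lower among 93 nuclear genes of oxidative phosphorylation (median -0.36, against 0.04 over all genes), with 0 of 7 mitochondrial transcripts in either direction. Of the markers of other cells, 0 of 5 red cell and 0 of 6 endothelial genes met the rule (medians 0.87 and 0.40), Col1a2 and Dcn were higher among 6 stromal genes, Rax lower among 6 pituicyte genes, and Ccl5 higher and Trbc2 lower among 5 T and NK cell genes. Red cell markers summed to 123, 274 and 119 UMIs per 10000 over all barcodes, highest in replicate 1.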

How the data were processed

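Drop-seq tables of UMI counts per gene and barcode were deposited by the authors. Per the labels and methods, reads were mapped to mm10 with Gencode vM13 (STAR 2.5.2a in the submitters' processing notes), exonic and uniquely mapped reads were counted, and UMIs within 1 edit were merged. The counts were used as deposited. The 10X libraries were not used, and 0 columns of per-sample values were left out. Barcodes were filtered (300 UMIs, 100 to 4000 genes, mitochondrial share 0.1) and UMIs summed per library and gate.

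Sums were tested with edgeR 4.0.16 (R 4.3.3; TMM, filterByExpr, quasi-likelihood, 1 coefficient per group, Benjamini-Hochberg adjusted p of 0.05) over 8 libraries, contrast lactating minus virgin, with DESeq2 1.42.0, other library sizes, a filter at 10 summed UMIs, a UMI minimum of 500, the 3 or the 6 female libraries alone, a batch term, other gates and omitted libraries as alternatives. Gates with under 20 barcodes stayed out of a fit. The scripts were tested on simulated counts with genes changed 4-fold in the lactating libraries. The 8-library fit recovered 6.42% of these over all barcodes, with 3 false calls. It recovered 31.8% in the melanotrope and C1qa gates (9 and 1 false calls) and 37.2% in the gonadotrope gate (0). The Sox2 fit, without lactating replicate 1 and WT 8-week female replicate 2, recovered 56.0% (4). Its design differs, so that value is not compared with the others. A count of 0 called genes over all barcodes therefore does not show that no gene changed. No doublet caller was run: barcodes of several gates were left out of the gates, and the 5% of barcodes with the most UMIs were left out as an alternative. Depth sets the precision: levels rest on 2520313 to 4963159 UMIs per library, and intervals and floors (3 counts) cover counting error only.

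Genes named were the 7 hormones, the 10 called genes with the largest change in each direction over all barcodes (5 in each gate, or the 3 with the smallest p where none passed), and up to 4 called members of each of 27 lists, or its 2 most counted members. Since the 8-library fit called none over all barcodes, the 10 in each direction were taken, after seeing this, from the fit to 3 libraries. The members and lists were chosen with earlier results of these data known. The 1.5-fold rule, its alternatives and the other named genes, such as Gad2, Cfl1, Nr4a2 and S100a8, were chosen after seeing the data. Sequences came from RefSeq (GRCm38.p6), coordinates from GENCODE vM21. Replicate numbers of the 8-week libraries follow accession order. WT 8-week female and male libraries of the same replicate number also share a tag in their titles. The main fit had no term for this pairing. Calls with a batch term for the 8-week libraries are given below as an alternative. A member of the antigen presentation list is counted but not reported here by name.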

Additional observations from a re-analysis of the deposited data

Results flagged for a closer look

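Red cell genes moved in opposite directions in 2 gates. In both lactating libraries the globin genes were above the virgin in Sox2+ barcodes and below it in C1qa+ barcodes. Hba-a1 was at 4.63-fold and 4.11-fold of the virgin in the Sox2 gate and at 0.0631-fold and 0.184-fold in the C1qa gate, Hbb-bs at 3.11-fold and 2.14-fold against 0.0815-fold and 0.287-fold, and Hbb-bt at 5.56-fold and 4.11-fold against 0.0395-fold and 0.230-fold. The Sox2 folds rest on few counts: Hba-a1, Hbb-bs and Alas2 together gave 31, 19 and 38 UMIs there, against 2002, 94 and 293 in the C1qa gate. The mean log2 ratios differed between the gates by 5.34 for Hba-a1, 4.08 for Hbb-bs and 5.65 for Hbb-bt. The difference was not tested.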

How the results depend on the processing

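No paired analysis was possible because the virgin is 1 library whose labels give it no replicate number. Among 2443 alternative fits of single genes, 46 turned the sign of the log2 fold change, in 37 of 223 genes and gates, and none of these was called at an adjusted p of 0.05 (edgeR or DESeq2) before or after. Under TMM left out with no hormones in the library size (the plain scaling), the turned values were -0.13 for Cga, -0.039 for Pam and -0.21 for Pcsk1 in melanotropes, -0.089 for Scn7a, -0.025 for Oxt, -0.051 for Esr1 and -0.060 for Fos over all barcodes and -0.054 for Cyp2f2 and -0.027 for Sox2 in the Sox2 gate. By DESeq2 it was -0.0028 for Pcsk1 in melanotropes. At 10 or more summed UMIs it was 0.016 for Mki67 over all barcodes.

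Genes called by edgeR over all barcodes were 80 higher and 129 lower with the 3 libraries alone, 1 and 2 with a batch term, and, for lower genes, 5 by DESeq2, 1 at 10 or more summed UMIs, 1 in the 6 females and 1 without the 5% of barcodes with most UMIs. In the melanotrope gate the 3 libraries gave 0 lower, and in the gonadotrope gate 1 higher. In the Sox2 gate higher genes numbered 0 by DESeq2, 5 under the plain scaling, 5 at 10 or more UMIs, 5 at a UMI minimum of 500, 2 without the top 5% and 0 with barcodes of several gates kept, and lower genes 0, 2 and 3 by DESeq2, without the top 5% and with several gates. In the C1qa gate higher genes numbered 15 with 3 libraries, 4 with a batch term, 1 without the top 5% and 1 at the other gate threshold, and lower genes 1 by DESeq2, 5 under the plain scaling, 10 at 10 or more UMIs, 25 with 3 libraries, 9 in females, 11 with a batch term and 5 at the other threshold. The 1.5-fold rule under the plain scaling gave 169 and 1305 over all barcodes, 43 and 222 in melanotropes, 45 lower in gonadotropes (7 without the top 5%) and 23 and 48 in the Sox2 gate. The cause was not tested.

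Leaving out each lactating and each WT 8-week library in turn gave 0 to 1 higher and 0 to 2 lower over all barcodes, 0 to 1 and 1 to 1 in melanotropes, 0 to 0 and 0 to 3 in gonadotropes, 6 to 6 and 6 to 6 in the Sox2 gate, and 0 to 10 and 1 to 16 in the C1qa gate. Without lactating replicate 2, gonadotropes had 0 calls. The highest C1qa counts came without a WT 8-week female library (10 and 15 without replicate 1, 10 and 16 without replicate 2), the lowest lower count without WT 8-week male replicate 1. Gate shares moved in 34 alternatives of thinning, depth or gate. The gonadotrope gate threshold could not be fitted, nor, in the Sox2 gate, the 3 libraries, the females, the batch term, other omissions of 1 library, the threshold and the thinned gate. With 1 virgin library, depth and 3 residual degrees of freedom (1 in the Sox2 gate) limit the calls.

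With 1 library left out, log2 fold changes over all barcodes ran from -0.74 to 0.24 for Gh, from -0.40 to 0.24 for Cga, from -0.23 to 2.82 for Nr4a1, from -2.87 to 3.09 for H2-Eb1, from -0.47 to 0.33 for Mki67, from -0.041 to 1.07 for Hbb-bt, from -5.93 to 5.16 for S100a8, from -7.68 to 3.0 for S100a9, from -2.81 to 5.73 for Ngp, from -0.90 to 0.88 for Oxt, from -0.68 to 3.09 for Avp, from -0.58 to 0.71 for Fos and from -0.40 to 1.68 for Egr1. With 1 library left out, log2 fold changes in melanotropes ran from -0.25 to 0.85 for Prl, from -1.04 to 0.16 for Gh, from -0.34 to 0.75 for Pomc, from -0.17 to 0.57 for Fshb, from -0.33 to 0.47 for Cga, from -0.93 to 0.43 for Tshb, from -0.73 to 2.84 for Nr4a1, from -0.51 to 0.056 for Drd2, from -0.92 to 0.24 for Scg5, from -0.26 to 0.57 for Pam, from -1.81 to 0.79 for Pcsk1 and from -0.70 to 0.16 for Cpe. With 1 library left out, log2 fold changes in gonadotropes ran from -0.42 to 0.50 for Gh, from -2.32 to 0.45 for Tshb, from -0.48 to 0.043 for Nr5a1 and from -0.90 to 0.39 for Isl1. With 1 library left out, log2 fold changes in the C1qa gate ran from -1.03 to 0.060 for Gh, from -1.87 to 3.21 for H2-Eb1, from -0.32 to 0.11 for Csf1r and from -0.042 to 0.38 for Cx3cr1. These turns came without a lactating library, apart from 2 of Mki67 near 0.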

Other observations

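Neutrophil genes were counted mostly in lactating replicate 2. S100a8, a calcium-binding protein of neutrophils, gave 10, 0 and 495 UMIs, S100a9, its partner, 34, 0 and 372, and the granule protein Ngp 1, 0 and 83. Of the 495 S100a8 UMIs, 491 were in 9 barcodes that passed no gate. Oxt and Avp, the hormones of the neural lobe, gave 41, 18 and 103 UMIs and 4, 2 and 48 UMIs.

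Some genes picked after their values were seen were also highest in replicate 2, although 0 of 15 genes of the immediate early list met the 1.5-fold rule upward and Jun met it downward. The nuclear receptor Nr4a2 stood at 0.214, 0.429 and 2.03, Nr4a1 at 0.0766, 0.0639 and 0.542, the small GTPase Gem at 0.0689, 0.105 and 0.719 and Junb at 0.532, 0.434 and 1.32, whereas Jun stood at 0.708, 0.319 and 0.43. Cenpf, a mitotic protein, stood at 0.352, 0.269 and 0.98. The 2 lactating libraries therefore differed from each other in these genes, apart from Jun, and none was called by edgeR over 8 libraries.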
